A study of Homo sapiens with 8 samples.

Results

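Integrins and laminins, with fibronectin, tenascin C, vitronectin and the nidogens, were examined in control and TRPM7 shRNA neuroblastoma cells. The members were taken by gene symbol, as ITGA followed by a number or a single letter, ITGB followed by a number, LAMA, LAMB or LAMC followed by a number, and FN1, TNC, VTN, NID1 and NID2. This gave 42 of the 31426 gene symbols on the array, measured by 76 of its 47322 probes. ITGA2B is spelled otherwise and was not counted. Each gene was read by its probe with the highest mean signal over 8 arrays. Of the 34 other probes of these genes, 16 were detected on no array, and other probes of a gene with a call are given where their reading differs.

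The 2 cell lines were SH-SY5Y, labelled as a neuroblastic neuroblastoma line, and SH-EP2, labelled as epithelial-like. Both are subclones of the SK-N-SH line, so that each kind of cell is represented here by a single subclone. In each line, control cells carried a scrambled shRNA and TRPM7 shRNA cells a hairpin against TRPM7, a cation channel with a kinase domain, and every group had undergone lentiviral transduction. The labels give the same serum-containing DMEM for all samples, whereas the study's methods give DMEM for SH-EP2 and DMEM/F12 for SH-SY5Y cells, so that the cell line and the medium cannot be told apart between the lines. Each of the 4 groups had 2 arrays. With a single TRPM7 hairpin, loss of TRPM7 and any action of that hairpin on other transcripts cannot be told apart. According to the study's methods the samples were prepared in duplicate. Whether the 2 samples of a group came from separate cultures is not stated there or in the labels, and the p-values therefore measure the spread between these samples, which may be technical.

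Integrins are cell surface receptors made of an alpha and a beta subunit, which bind matrix proteins outside the cell and the actin cytoskeleton, through talin, kindlin and other adaptors, inside it. The alpha subunit largely sets the ligand, collagen, laminin or proteins with an RGD sequence, and ITGB1 pairs with most of the alpha subunits that adherent cells use. Laminins are trimers of an alpha, a beta and a gamma chain. They form the basement membrane together with type IV collagen and nidogen. In neuroblastoma cell lines, substrate-adherent cells are known for a broader set of integrins and more secreted matrix than neuroblastic cells.

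TRPM7 itself was read by 1 probe (ILMN_1667047). None of the 8 arrays detected it, with log2 signals of 2.46 to 3.02 and detection p-values of 0.0753 to 0.201. These signals do not allow the knockdown itself to be checked on the arrays. The study's methods describe quantitative PCR of TRPM7 mRNA in both lines. The study also repeated the SH-EP2 migration assay with another, independent TRPM7 hairpin, which these arrays do not include. Between 40.9% and 44.2% of the probes were detected per array, and the 2 arrays of a group correlated at 0.981 to 0.985 over all probes. Of 8 neuroblastic markers, 7 were detected on both arrays of each SH-SY5Y group (TH, the rate-limiting enzyme of catecholamine synthesis, was not detected on any array), against 4 in SH-EP2 control and 3 in SH-EP2 TRPM7 shRNA cells. The epithelial-like markers are mesenchymal genes of substrate-adherent cells, named here after the label of the SH-EP2 line, and do not mark an epithelial state. All 7 epithelial-like markers were detected in SH-EP2 cells and 5 of them in SH-SY5Y cells. Between the control lines (limma, Benjamini-Hochberg adjusted p under 0.05), 5 of the 7 were higher in SH-EP2 cells. The other 2, TWIST1 (log2 difference -1.24) and VIM (-0.19), were lower in SH-EP2 cells. Of the 8 neuroblastic markers, 7 were lower and 0 higher there.

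Promoter sequences are shown for 5 members whose signals changed with TRPM7 shRNA, 3 of them collagen receptor subunits (ITGA1 and ITGA2, which lie on the same chromosome, and ITGA11) and the others LAMC1 and TNC. They are the 250 bases before the annotated start, 5′ to 3′ on the strand of the gene, from the RefSeq promoter table of GRCh38.p14, at chr5:52787666-52787915 (+ strand) for ITGA1, chr5:52989102-52989351 (+) for ITGA2, chr15:68432164-68432413 (- strand) for ITGA11, chr1:183023170-183023419 (+) for LAMC1 and chr9:115118158-115118407 (-) for TNC. Capitals mark matches to TATANA (TATA box), GGGCGG (GC box), CAGGTG (E-box), TGANTCA (AP-1) or GGAATG (TEAD), searched on both strands, so that CCGCCC is a GC box on the opposite strand.
ITGA1: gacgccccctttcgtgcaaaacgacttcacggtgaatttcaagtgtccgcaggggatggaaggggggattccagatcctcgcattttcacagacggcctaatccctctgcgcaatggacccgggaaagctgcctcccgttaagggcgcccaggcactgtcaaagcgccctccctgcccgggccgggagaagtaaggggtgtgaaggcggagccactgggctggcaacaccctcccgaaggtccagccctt
ITGA2: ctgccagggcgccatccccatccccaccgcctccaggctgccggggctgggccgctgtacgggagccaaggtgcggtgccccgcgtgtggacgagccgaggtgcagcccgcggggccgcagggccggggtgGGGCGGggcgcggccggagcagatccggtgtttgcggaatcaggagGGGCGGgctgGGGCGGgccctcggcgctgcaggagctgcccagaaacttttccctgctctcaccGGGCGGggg
ITGA11: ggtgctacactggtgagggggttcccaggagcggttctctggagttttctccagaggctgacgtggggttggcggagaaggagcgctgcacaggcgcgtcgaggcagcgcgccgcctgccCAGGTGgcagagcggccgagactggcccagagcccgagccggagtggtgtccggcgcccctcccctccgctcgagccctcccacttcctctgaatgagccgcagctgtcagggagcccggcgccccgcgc
LAMC1: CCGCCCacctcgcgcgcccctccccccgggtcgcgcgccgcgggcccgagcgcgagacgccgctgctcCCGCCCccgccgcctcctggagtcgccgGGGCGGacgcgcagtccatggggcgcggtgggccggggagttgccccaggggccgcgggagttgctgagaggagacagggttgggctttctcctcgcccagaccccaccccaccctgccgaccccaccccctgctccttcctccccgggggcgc
TNC: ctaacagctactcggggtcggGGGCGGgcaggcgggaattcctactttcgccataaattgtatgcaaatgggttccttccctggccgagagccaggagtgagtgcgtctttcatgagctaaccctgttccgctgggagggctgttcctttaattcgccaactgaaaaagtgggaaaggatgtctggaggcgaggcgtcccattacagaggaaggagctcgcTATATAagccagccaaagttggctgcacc

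Over these 250 bases ITGA2 had 4 GC boxes, LAMC1 3 and TNC 1, while ITGA11 had 1 E-box and ITGA1 no match to the motifs searched. TNC also had a TATA box, TATATA, which reads the same on both strands, 29 to 24 bases before the start. A GC box was present in 42.6% of all 35116 promoters in the table, an E-box in 17.5%, a TATA box in 17.7%, a TEAD match in 11.9% and an AP-1 match in 6.57%. The GC content was 54.8% in TNC, 62.0% in ITGA1, 71.2% in ITGA11, 76.4% in ITGA2 and 79.6% in LAMC1, and its median over all promoters was 58.0%. Promoters were found for 30 of the 42 members. The matches describe the sequence, and no binding was measured.

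Which members the cells expressed was read from the detection p-value that the scanner software gives each bead signal, with detection set at a p under 0.05. A total of 16 members were detected on all 8 arrays. They comprised ITGA1, ITGA2 and ITGA11, the laminin receptor subunit ITGA3, ITGAV, ITGA4, ITGAE, the beta subunits ITGB1, ITGB2 and ITGB5, the laminin chains LAMA5, LAMB1, LAMB2 and LAMC1, and TNC and NID1. Another 7 members, among them ITGA5, ITGA10, ITGB7, LAMA4, LAMB3 and FN1, were detected on all 4 SH-EP2 arrays and on none of the 4 SH-SY5Y arrays. No array detected ITGA8, ITGAD, ITGAL, ITGAX, ITGB3, ITGB6, ITGB8 or LAMB4, and the remaining 11 members were detected on some arrays. Both arrays detected 17 members in SH-SY5Y control, 22 in SH-SY5Y TRPM7 shRNA, 26 in SH-EP2 control and 26 in SH-EP2 TRPM7 shRNA cells. Since signals of different probes depend on the probe, they were compared between arrays and not between genes.

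**Figure D1:**
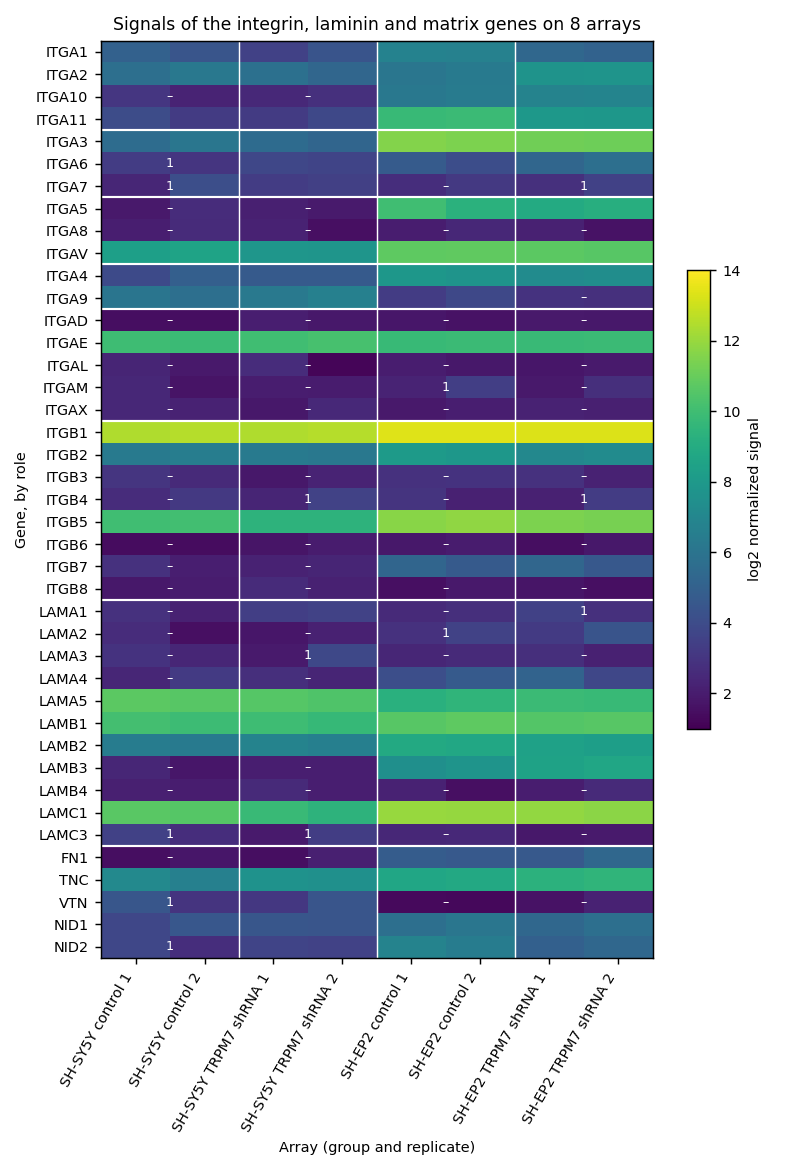
Log2 normalized signals (colour) of the members reported singly (rows, grouped by role from collagen-binding alpha subunits at the top to other matrix genes at the bottom) on the 8 arrays (columns). A dash marks a group of 2 arrays in which neither detected the gene and a 1 a group in which 1 did. ITGA5, ITGA10, ITGB7, LAMA4, LAMB3 and FN1 carry dashes in both SH-SY5Y groups and none in the SH-EP2 groups.

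To see how the lines differ before knockdown, SH-EP2 control cells were compared with SH-SY5Y control cells. Of the 42 members, 22 were higher and 3 lower in SH-EP2 control cells at a Benjamini-Hochberg adjusted p under 0.05 (limma). Over all genes on the array, 14.2% were higher and 15.9% lower. The members had a median log2 difference of 0.99, against -0.019 for all genes. The 3 members that were lower in SH-EP2 cells were ITGA9, LAMA5 and VTN. ITGAE, the alpha partner of ITGB7 in intraepithelial lymphocytes, was detected on all 8 arrays and read 9.78 to 10.23 over them. Members above threshold in favour of SH-EP2 cells were found in every role, except among the leukocyte alpha subunits, where 0 of 5 passed, also at an unadjusted p under 0.05. As bulk RNA was measured, a smaller number of expressing cells and less RNA per cell cannot be told apart.

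Among the receptors for collagen, ITGA11, a subunit known from mesenchymal cells, had log2 signals of 9.76 and 9.88 in SH-EP2 control cells and of 4.01 and 3.24 in SH-SY5Y control cells. The difference was 6.19 ± 0.24 (log2, SE, n = 2 per group), or 73.3-fold (adjusted p = 4.22e-14). ITGA10, the cartilage-type collagen receptor, read 6.21 and 6.41 in SH-EP2 control cells and was undetected in SH-SY5Y control cells at 3.07 and 2.31. It was therefore at least 8.87-fold higher, a lower bound set by the weakest signal still detected on the SH-SY5Y arrays (adjusted p = 1.99e-08). ITGA1 was higher by a log2 of 2.00 ± 0.31 (adjusted p = 2.78e-05). ITGA2 had 5.77 and 6.22 in SH-SY5Y and 6.11 and 6.37 in SH-EP2 control cells, ranges that overlapped.

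The laminin receptor subunit ITGA3 read 11.60 and 11.44 in SH-EP2 control cells and 5.61 and 6.10 in SH-SY5Y control cells, a difference of 5.66 ± 0.15 (log2, SE) or 50.7-fold (adjusted p = 9.74e-17). A second, dim ITGA3 probe (ILMN_1654074), detected on 1 of the SH-EP2 control arrays and on no SH-SY5Y array, did not pass (log2 difference 1.03, adjusted p = 0.163). ITGA6, the other common laminin receptor subunit, was detected on 1 of the 2 SH-SY5Y control arrays and was 2.40-fold higher in SH-EP2 cells (adjusted p = 0.0128). Both other ITGA6 probes were undetected on every array, and the call was lost when the probes were averaged. The fibronectin receptor subunit ITGA5 gave 10.02 and 9.28 in SH-EP2 control cells. In SH-SY5Y control cells it was undetected at 1.89 and 2.63, and the difference was at least 90.1-fold (adjusted p = 1.97e-14). ITGAV, the alpha subunit of vitronectin receptors, was detected in both lines, with 10.79 and 10.80 against 8.32 and 8.52, or 5.19-fold (adjusted p = 1.63e-13). For each of these 4 subunits, both SH-EP2 control arrays were above both SH-SY5Y control arrays. The control arrays of the lines did not overlap for 31 of the 42 members, called or not. The share over all genes was not counted, so this number has no background to be read against.

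ITGA4 and ITGA9, closely related subunits that bind fibronectin, VCAM1 and tenascin C, went in opposite directions. ITGA4 read 7.89 and 7.73 in SH-EP2 control cells and 3.91 and 4.93 in SH-SY5Y control cells, which was 10.5-fold higher in SH-EP2 cells (adjusted p = 1.47e-09). ITGA9 read 3.33 and 3.80 in SH-EP2 control cells and 6.07 and 5.76 in SH-SY5Y control cells, which was 5.09-fold lower (adjusted p = 3.97e-06). Their beta partner ITGB1 was 1.83-fold higher in SH-EP2 cells by its brightest probe (log2 difference 0.87 ± 0.06), and 2 further probes detected on all arrays gave 0.83 and 1.29. A dim ITGB1 probe (ILMN_1784454) was detected in SH-EP2 cells and on no SH-SY5Y array, and the remaining ITGB1 probes were undetected in both control groups. ITGB5, the partner of ITGAV, was 3.29-fold higher (adjusted p = 2.24e-12) and ITGB7 at least 3.5-fold higher (adjusted p = 1.91e-04) in SH-EP2 control cells.

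Of the 12 laminin chains, 6 were higher and 1 was lower in SH-EP2 control cells. LAMB3, a chain of the epithelial anchoring laminin, read 7.49 and 7.70 in SH-EP2 control cells and was undetected in SH-SY5Y control cells at 2.39 and 1.80, a difference of at least 21.7-fold (adjusted p = 2.57e-12). This rests on 1 probe, as both other LAMB3 probes were undetected on every array. LAMA3, the alpha chain that LAMB3 joins, was undetected in both control groups. LAMB2 read 8.88 and 8.79 against 6.45 and 6.29, or 5.52-fold higher in SH-EP2 cells (adjusted p = 2.11e-11). LAMC1, the gamma chain of most laminins, was 2.54-fold higher, and LAMA4 at least 2.37-fold higher, or at least 3.30-fold by its second probe (ILMN_2140059). LAMA5, the broadly expressed alpha chain, was the laminin chain that was lower in SH-EP2 control cells, with 9.27 and 9.49 against 10.75 and 10.63, or 2.47-fold (adjusted p = 1.53e-09).

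For 2 laminin chains the probes of the gene did not give the same reading between the lines. The brightest LAMB1 probe was higher in SH-EP2 control cells by a log2 of 0.67 (adjusted p = 2.06e-05), whereas its second probe (ILMN_2214790), detected on all arrays as well, was lower by a log2 difference of -0.83 (adjusted p = 1.86e-04). The direction of LAMB1 between the lines therefore depends on the probe. The LAMA1 probe used here was undetected in both control groups, whereas a second one (ILMN_1696434) was detected on all 4 SH-SY5Y arrays and on no SH-EP2 array, at least 1.51-fold lower in SH-EP2 control cells (adjusted p = 6.98e-04).

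All 5 other matrix genes passed the threshold between the control lines. NID2, a nidogen that links laminin to type IV collagen, read 6.79 and 6.47 in SH-EP2 and 3.77 and 2.72 in SH-SY5Y control cells, 10.4-fold higher in SH-EP2 cells (adjusted p = 1.39e-07). It was detected on 1 of the SH-SY5Y control arrays. TNC, an adhesion-modulating glycoprotein, was 3.71-fold and NID1 3.43-fold higher. Fibronectin (FN1) was at least 2.95-fold higher in SH-EP2 cells (adjusted p = 2.97e-05), by a probe that did not pass 5.34 on any array. The other FN1 probes did not give this call. One (ILMN_2366463), detected on 1 of the SH-EP2 control arrays, had a log2 difference of 1.13 (adjusted p = 0.132), and the other (ILMN_1675646), undetected on every array, had one of -0.25. VTN, the serum adhesion protein vitronectin, was at least 1.41-fold lower in SH-EP2 cells and was detected on 1 of the SH-SY5Y control arrays. The sizes of these differences depended on the background correction. Without one, the log2 difference was 3.07 for ITGA5, 3.03 for ITGA11, 1.54 for LAMB2, 1.51 for LAMB3, 1.32 for ITGA4, 0.82 for NID2, 0.75 for ITGA10 and -0.49 for ITGA9, and when all probes of a gene were averaged it was 3.35 for ITGA3 and 1.93 for LAMB3, all still past the threshold.

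**Figure D2:**
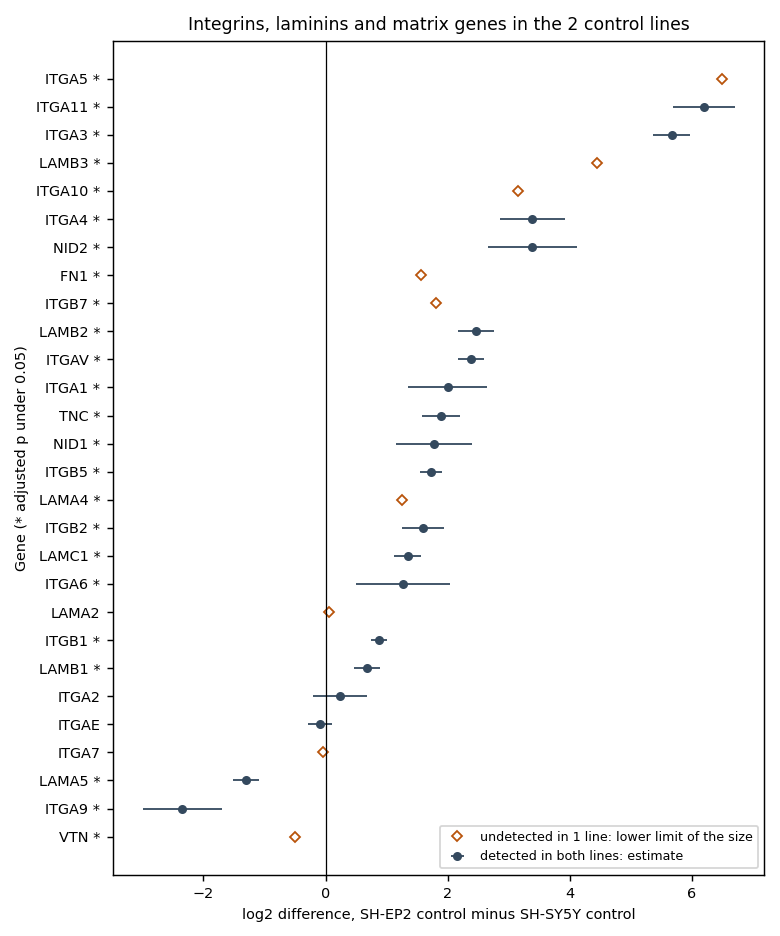
Log2 difference between SH-EP2 control and SH-SY5Y control cells (horizontal axis) for members with a measured or bounded difference (rows, ordered by the fitted difference). Filled circles are limma estimates with 95% confidence intervals (n = 2 arrays per group), and open diamonds are lower limits of the size where 1 line was undetected. Asterisks mark an adjusted p under 0.05. ITGA5, ITGA11, ITGA3 and LAMB3 lie farthest to the right and VTN, ITGA9 and LAMA5 are called to the left of 0.

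To see which members changed with TRPM7 shRNA in neuroblastic cells, SH-SY5Y TRPM7 shRNA cells were compared with SH-SY5Y control cells. LAMC1, ITGB5 and ITGAV were lower and TNC was higher in SH-SY5Y TRPM7 shRNA cells, so that 4 of the 42 members passed an adjusted p under 0.05, 1 higher and 3 lower. Over all genes, 0.999% were higher and 1.57% lower. That balance depended on the scaling. Over all probes, 382 were higher and 617 lower after quantile normalization, against 553 higher and 284 lower with median scaling, where the same 4 members passed in the same directions. At an unadjusted p under 0.05 the number of members was 9. The share of all genes at the unadjusted threshold was not counted, and the shares above are for the adjusted one. The median log2 difference of the members was -0.04, against 0.0034 for all genes, and 20 were above and 22 below 0. When the variance of a probe was not moderated along its intensity, 0 of the 42 members passed after adjustment and 7 before it. In that setting 64 of all 47322 probes passed after adjustment, against 999 with that moderation.

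LAMC1 had log2 signals of 10.67 and 10.55 in control and of 9.80 and 9.39 in TRPM7 shRNA SH-SY5Y cells. Both TRPM7 shRNA arrays were below the control arrays, with a log2 difference of -1.02 ± 0.11 (SE, n = 2 per group), which is 2.02-fold lower (adjusted p = 5.36e-06). The arrays of the groups did not overlap for 16 of the 42 members in this comparison, called or not. The share over all genes was not counted, and with 2 arrays per group non-overlap alone is weak evidence of a change. The chains that LAMC1 joins in laminin trimers, LAMA5 (log2 difference -0.17), LAMB1 (-0.17) and LAMB2 (0.33), did not pass the threshold (adjusted p = 0.567, 0.585 and 0.353). Chains that were undetected in both SH-SY5Y groups, such as LAMB3 and LAMA4, could not be compared.

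The vitronectin receptor subunits ITGAV and ITGB5 both fell. ITGAV read 8.32 and 8.52 in control and 7.83 and 7.78 in TRPM7 shRNA SH-SY5Y cells, 1.53-fold lower (log2 difference -0.61 ± 0.10, adjusted p = 0.00122). ITGB5 read 10.03 and 10.07 against 9.40 and 9.40, 1.57-fold lower (log2 difference -0.65 ± 0.09, adjusted p = 1.11e-04). Of the other 4 ITGB5 probes, the 2 that were detected also fell, by 0.77 and 1.02 on the log2 scale (adjusted p = 9.55e-06 and 0.00173), and the 2 that no array detected had differences of 0.0070 and 0.08. When the probes of a gene were averaged, undetected ones included, ITGB5 no longer passed, at a log2 difference of -0.47. ITGB1, which can also pair with ITGAV, had a log2 difference of 0.03 with a 95% confidence interval of -0.10 to 0.16. The other beta partners of ITGAV, ITGB3, ITGB6 and ITGB8, were undetected.

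TNC had 7.12 and 6.64 in control and 7.64 and 7.51 in TRPM7 shRNA SH-SY5Y cells, a 1.62-fold increase (log2 difference 0.69 ± 0.15, adjusted p = 0.0119). Its second probe also rose, by a log2 of 0.61 (adjusted p = 0.0367). The TNC call was lost when control replicate 2 (log2 difference 0.46) or TRPM7 shRNA replicate 1 (0.63) was left out and when the SH-SY5Y arrays were normalized and fitted alone (0.68), and it held without background correction, at 0.39. ITGAV, ITGB5 and LAMC1 passed with any one of the 8 arrays left out.

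Some collagen and laminin receptor subunits of SH-SY5Y cells had an unadjusted p under 0.05 and did not pass after adjustment. ITGA3 read 5.61 and 6.10 in control and 5.53 and 5.24 in TRPM7 shRNA cells, with a log2 difference of -0.47 (adjusted p = 0.143). ITGA1 had a log2 difference of -0.79 (adjusted p = 0.285) and ITGA2 one of -0.45 (adjusted p = 0.422). For LAMA1, undetected in control and detected in TRPM7 shRNA cells by the brightest probe, the difference was at least 1.25-fold (adjusted p = 0.47), while its second probe was detected in both groups. The fibronectin and tenascin receptor subunits ITGA4 and ITGA9 had log2 differences of 0.25 and 0.54 (adjusted p = 0.812 and 0.565), ITGAE one of 0.22 (adjusted p = 0.365), and the nidogens NID1 and NID2 0.33 and 0.35 (adjusted p = 0.773 and 0.801). FN1, ITGA5 and ITGA10 were undetected on all 4 SH-SY5Y arrays.

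To ask the same in epithelial-like cells, SH-EP2 TRPM7 shRNA cells were compared with SH-EP2 control cells. Collagen receptor subunits moved in both directions, with ITGA2 higher and ITGA1 and ITGA11 lower in TRPM7 shRNA cells. ITGB2, ITGB5 and NID2 were also lower, and LAMA5 and TNC higher, so that 8 of the 42 members passed an adjusted p under 0.05, 3 higher and 5 lower. Over all genes, 1.82% were higher and 1.85% lower. With median scaling of the arrays instead of quantile normalization, 1 member was higher and 4 were lower, as ITGB5, LAMA5 and TNC no longer passed. At an unadjusted p under 0.05 the number of members was 15, where again the share of all genes was not counted. The median log2 difference of the members was -0.06, against 0.010 for all genes. Without moderation of the variance along the intensity, 0 of the 42 members passed after adjustment and 13 before it. In that setting 100 of all 47322 probes passed after adjustment, against 1429 with that moderation.

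ITGA11 read 9.76 and 9.88 in control and 7.93 and 7.89 in TRPM7 shRNA SH-EP2 cells, 3.76-fold lower (log2 difference -1.91 ± 0.24, adjusted p = 6.27e-05). Its second probe fell by 2.13 on the log2 scale (adjusted p = 3.03e-04). ITGA1, the receptor subunit that prefers type IV collagen, read 6.74 and 6.71 in control and 5.32 and 5.08 in TRPM7 shRNA cells, 2.88-fold lower (log2 difference -1.53 ± 0.31, adjusted p = 0.0063). ITGA2, the subunit that prefers fibrillar collagen, read 6.11 and 6.37 in control and 7.70 and 7.75 in TRPM7 shRNA cells, 2.80-fold higher (log2 difference 1.49 ± 0.21, adjusted p = 2.18e-04). For each of the 3 the arrays of the groups did not overlap, as for 28 of the 42 members in this comparison, called or not. The share over all genes was not counted, so non-overlap is not read as a result here. The fourth collagen receptor subunit, ITGA10, had a log2 difference of 0.55 (adjusted p = 0.551), and their shared beta subunit ITGB1 one of -0.06 with a 95% confidence interval of -0.19 to 0.07.

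ITGA2 and ITGA11 passed with any one of the 8 arrays left out. ITGA1 was lost when control replicate 1 (log2 difference -1.51), control replicate 2 (-1.54) or TRPM7 shRNA replicate 2 (-1.41) was left out, where the size stayed close to that with all arrays. The size of the changes depended on the background correction. Without one, the log2 difference was 0.78 for ITGA2, -0.55 for ITGA1, -0.53 for ITGB2 and -0.51 for NID2, which all still passed.

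ITGB2, the common beta subunit of leukocyte integrins, had 8.11 and 7.90 in control and 7.07 and 7.27 in TRPM7 shRNA SH-EP2 cells, 1.79-fold lower (log2 difference -0.84 ± 0.16, adjusted p = 0.00486). Its second probe fell by 0.88 on the log2 scale (adjusted p = 0.035). ITGB2 was detected on all 8 arrays, whereas its alpha partners ITGAL, ITGAX and ITGAD were detected on none and ITGAM on a single array, SH-EP2 control replicate 2. Among 4 leukocyte markers, CD3E, a T cell marker, was not detected on any array, PTPRC, the pan-leukocyte marker, was detected on 3 of the 4 SH-EP2 arrays, and CD14, the lipopolysaccharide co-receptor of monocytes, on all 8 arrays. CD14 fell in SH-EP2 TRPM7 shRNA cells by 2.03 on the log2 scale (adjusted p = 3.22e-05). The summed linear signal of the 4 markers was 258 to 285 in SH-EP2 control and at most 84.3 in SH-EP2 TRPM7 shRNA cells, and 29.1 to 48.6 over the SH-SY5Y arrays. In SH-EP2 cells this sum was carried mostly by CD14, while PTPRC had a log2 difference of -0.0026 with TRPM7 shRNA (limma, adjusted p = 0.999). The part of the leukocyte markers in the ITGB2 result was not tested. The ITGB2 call was lost when control replicate 1 (log2 difference -0.74) or TRPM7 shRNA replicate 1 (-0.74) was left out.

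ITGB5 read 11.67 and 11.86 in control and 11.42 and 11.33 in TRPM7 shRNA SH-EP2 cells, 1.31-fold lower (log2 difference -0.39 ± 0.09, adjusted p = 0.0136). Its second bright probe fell by 0.35 on the log2 scale (adjusted p = 0.0215), the remaining detected probe had a difference of -0.56 (adjusted p = 0.104), and with the mean over all 5 probes the call was lost at -0.27. ITGAV, its alpha partner, had a log2 difference of -0.12 in SH-EP2 cells with a 95% confidence interval of -0.33 to 0.10. The ITGB5 call was lost when control replicate 2 (-0.29), TRPM7 shRNA replicate 1 (-0.43) or TRPM7 shRNA replicate 2 (-0.34) was left out.

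In the matrix, NID2 read 6.79 and 6.47 in control and 4.97 and 5.32 in TRPM7 shRNA SH-EP2 cells, 2.80-fold lower (log2 difference -1.48 ± 0.35, adjusted p = 0.0207). LAMA5 read 9.27 and 9.49 against 9.85 and 9.74, 1.33-fold higher (log2 difference 0.41 ± 0.10, adjusted p = 0.0227). TNC read 8.71 and 8.84 against 9.36 and 9.50, 1.57-fold higher (log2 difference 0.65 ± 0.15, adjusted p = 0.0146), and its second probe rose by a log2 of 0.87 (adjusted p = 0.00145). For these 3 genes the TRPM7 shRNA arrays did not overlap the control arrays, as for 28 of the 42 members, called or not, with no share over all genes counted. TNC and NID2 lost their calls when any one SH-EP2 array was left out, with log2 differences of 0.58 to 0.72 and of -1.66 to -1.31. LAMA5 lost its call without control replicate 1 (0.31), TRPM7 shRNA replicate 1 (0.36) or TRPM7 shRNA replicate 2 (0.47).

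Several laminin chains and receptors of SH-EP2 cells lay short of the adjusted threshold. LAMB3 read 7.49 and 7.70 in control and 8.47 and 8.70 in TRPM7 shRNA cells (log2 difference 0.99, adjusted p = 0.0615). LAMB2 read 8.88 and 8.79 against 8.42 and 8.31 (-0.47, adjusted p = 0.0869), and the laminin receptor subunit ITGA6 read 4.74 and 4.09 against 5.31 and 5.74 (1.11, adjusted p = 0.139). LAMB3, LAMB2 and ITGA6, with ITGA3, ITGA4 and ITGA5, were among the 15 members that passed when the SH-EP2 arrays were normalized and fitted alone. The fibronectin receptor subunits ITGA5 and ITGA4 had log2 differences of -0.61 and -0.49 (adjusted p = 0.345 and 0.467), and ITGA9, detected in control cells and not in TRPM7 shRNA cells, was at least 1.31-fold lower in the measured means without passing (adjusted p = 0.325). LAMA4 had a log2 difference of 0.06 by its brightest and of -0.89 by its second probe (adjusted p = 0.481 for the second). FN1 and NID1 had log2 differences of 0.28 and -0.36 (adjusted p = 0.895 and 0.713), LAMC1 one of -0.14 (adjusted p = 0.672) and LAMB1 one of -0.13 (adjusted p = 0.69).

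**Figure D3:**
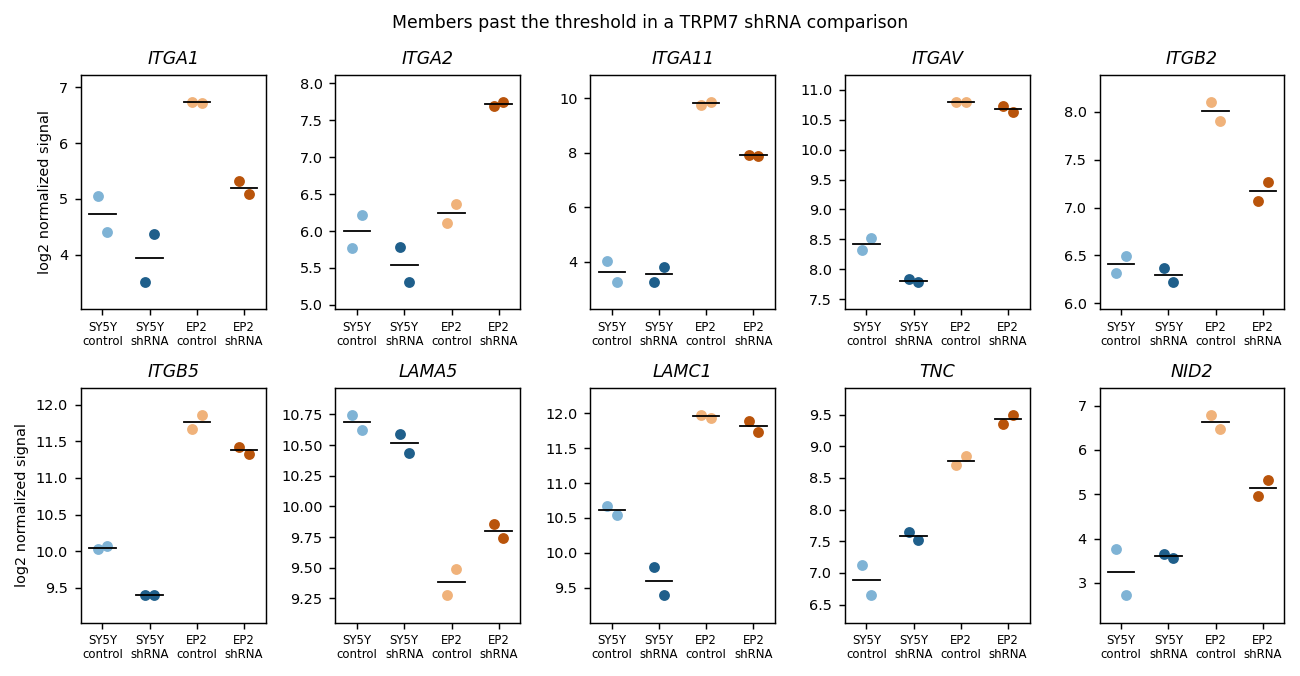
Log2 normalized signals (vertical axes, scaled per gene and not starting at 0) of the 10 members past the threshold in a TRPM7 shRNA comparison. Points are single arrays and lines the mean of 2 arrays for SH-SY5Y control, SH-SY5Y TRPM7 shRNA, SH-EP2 control and SH-EP2 TRPM7 shRNA cells. TNC was higher and ITGB5 lower with TRPM7 shRNA in both lines, and ITGA2 was higher in SH-EP2 TRPM7 shRNA cells.

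TNC and ITGB5 passed the threshold in both cell lines, each in the same direction. Whether an effect differed between the lines was tested as an interaction, the change in SH-EP2 cells minus the change in SH-SY5Y cells. It passed for 4 of the 42 members, ITGA2, LAMA5 and LAMC1 with a positive and ITGA11 with a negative difference, where 0.993% of all genes had a positive and 0.786% a negative one. With median scaling the split was 2 positive and 2 negative, with LAMB2 in place of LAMA5, and over all probes it turned from 375 positive and 287 negative to 182 positive and 309 negative. For ITGA2 the log2 change was 1.49 in SH-EP2 cells against -0.45 in SH-SY5Y cells, a difference of 1.94 ± 0.30 (SE, adjusted p = 9.07e-04). LAMC1 had a log2 change of -1.02 in SH-SY5Y cells against -0.14 in SH-EP2 cells, a difference of 0.88 ± 0.15 (adjusted p = 0.00232).

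ITGA11 changed by -1.91 in SH-EP2 cells and had a log2 difference of -0.10 in SH-SY5Y cells, where its signals of 3.24 to 4.01 were close to the detection limit. The difference of -1.81 ± 0.34 (adjusted p = 0.00599) no longer passed without SH-EP2 control replicate 2 (-1.74). By the second ITGA11 probe, undetected on all SH-SY5Y arrays, it was -1.43 and did not pass (adjusted p = 0.156), as the SH-EP2 change was -2.13 and the SH-SY5Y change -0.70. LAMA5 gave 0.41 and -0.17, a difference of 0.59 ± 0.14 (adjusted p = 0.0398). This call was lost with 5 of the 8 arrays left out in turn, with median scaling (0.47), in a test over genes with their probes averaged, and by blocking on the replicate number. ITGA1, ITGAV, ITGB2 and NID2, called in 1 line each, had interaction differences of -0.73, 0.50, -0.73 and -1.84 that did not pass (adjusted p = 0.614, 0.112, 0.18 and 0.0794). Without moderation of the variance along the intensity, 0 of the 42 interactions passed after adjustment and 10 before it. In that setting the interaction passed for 23 of all 47322 probes after adjustment, against 662 with that moderation. Before adjustment no count was taken over all probes.

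**Figure D4:**
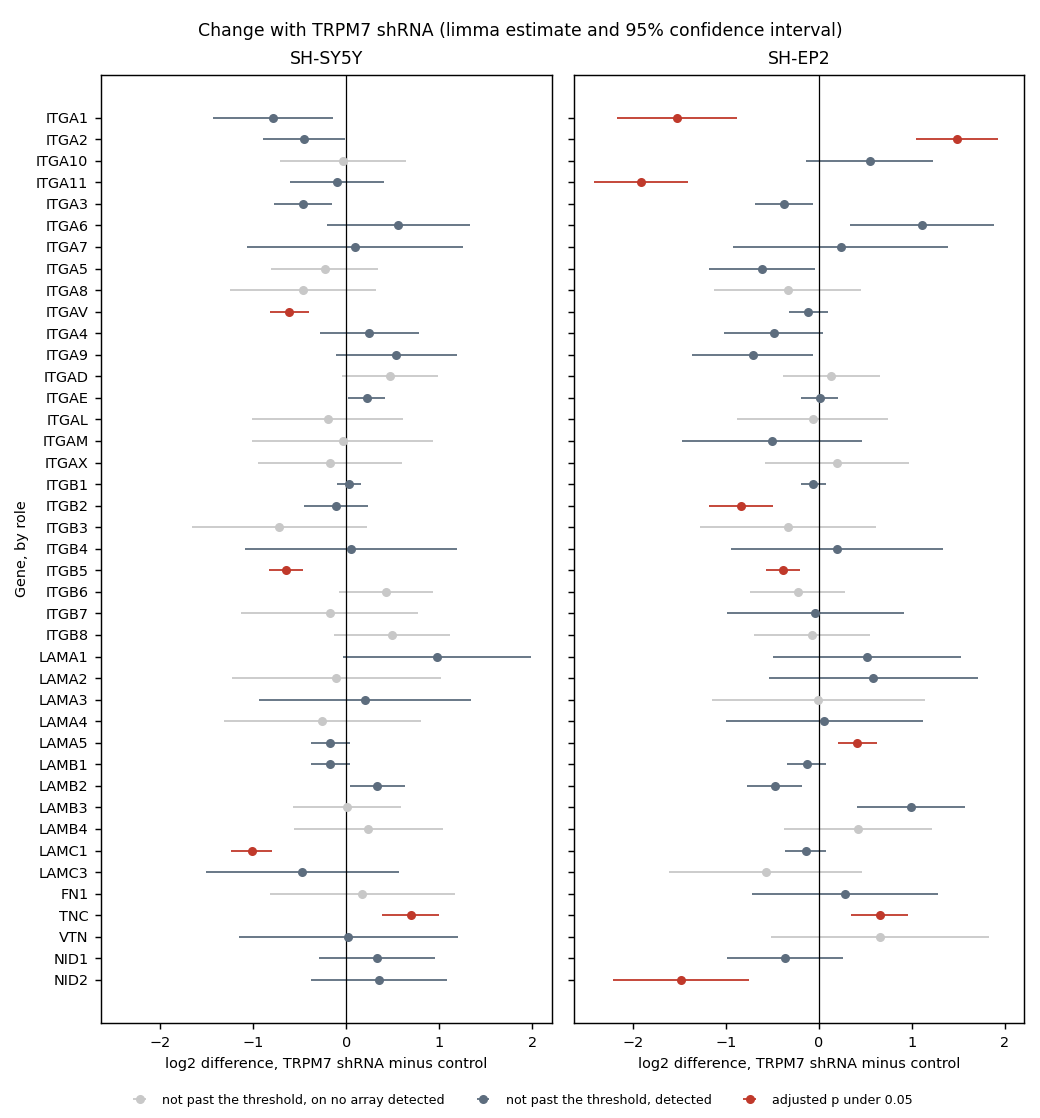
Log2 difference between TRPM7 shRNA and control cells (horizontal axes) for the members reported singly, by role (rows), in SH-SY5Y (left) and SH-EP2 cells (right), with 95% confidence intervals from limma (n = 2 arrays per group). Red points had an adjusted p under 0.05, dark points did not, and grey points were undetected on the 4 arrays compared. There are 4 red points in SH-SY5Y and 8 in SH-EP2 cells.

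The comparison of the control lines and that of TRPM7 shRNA in SH-EP2 cells share the SH-EP2 control arrays, so that their values are given side by side and not related. ITGA11, ITGA1 and NID2 were higher in SH-EP2 than in SH-SY5Y control cells by a log2 of 6.19, 2.00 and 3.38 and lower in SH-EP2 TRPM7 shRNA cells by log2 differences of -1.91, -1.53 and -1.48. ITGA2 had 0.24 and 1.49, TNC 1.89 and 0.65, and LAMA5 -1.30 and 0.41. In SH-SY5Y cells, where the SH-SY5Y control arrays are shared, LAMC1 had 1.35 between the lines and -1.02 with TRPM7 shRNA.

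Adaptors and partners that link integrins to the cytoskeleton were read in a list of 23 genes. Among all genes 1.57% were lower and 0.999% higher in SH-SY5Y TRPM7 shRNA cells, at a median log2 difference of 0.0034. In the list 3 were lower and none higher, at a median of 0.04. They were PXN, the adhesion scaffold paxillin (-0.75, adjusted p = 0.0462), ZYX, zyxin of mature adhesions (-0.53, adjusted p = 0.0102), and TNS3, a tensin (-0.48, adjusted p = 0.00787). Among all genes 1.85% were lower and 1.82% higher in SH-EP2 TRPM7 shRNA cells, at a median of 0.010. In the list 4 were lower and none higher, at a median of -0.18. LIMS2, a PINCH adaptor, fell most (-2.32, adjusted p = 0.00214), followed by FERMT2, which is kindlin 2 and activates integrins (-0.74, adjusted p = 3.06e-05), ILK, the integrin-linked pseudokinase that binds PINCH (-0.42, adjusted p = 0.00214), and CD151, the tetraspanin partner of laminin-binding integrins (-0.37, adjusted p = 0.00128). The interaction passed for FERMT2, ILK and LIMS2 (adjusted p = 0.0018, 0.0256 and 0.0311), each with a negative difference. Among all genes 0.993% had a positive and 0.786% a negative one. Between the control lines 16 of the 23 were higher and 2 lower in SH-EP2 cells, against 14.2% and 15.9% of all genes.

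Other matrix proteins and non-integrin receptors were read in a list of 27 genes. In SH-SY5Y TRPM7 shRNA cells 2 of the list rose and 1 fell, where 0.999% of all genes rose and 1.57% fell. FBN1, the microfibril protein fibrillin, was undetected in control and at least 2.58-fold higher in TRPM7 shRNA cells (adjusted p = 0.00397), SDC2, a syndecan, rose by a log2 of 0.63 (adjusted p = 0.0071), and FBLN1, a fibulin, fell by 0.35 (adjusted p = 0.0247). Where 1.82% of all genes rose and 1.85% fell in SH-EP2 TRPM7 shRNA cells, 3 of the list rose and 4 fell. The 4 with the largest change were POSTN, the ITGAV ligand periostin (-1.55, adjusted p = 0.00151), SDC2 (-1.41, adjusted p = 9.11e-07), THBS2, thrombospondin (-1.24, adjusted p = 1.01e-04), and SDC1, a syndecan (0.86, adjusted p = 7.58e-06). SDC2 thus passed in both lines with opposite signs, and its interaction was -2.05 (adjusted p = 1.07e-06). Over this list the median log2 difference was 0.019 for SH-SY5Y cells and -0.16 for SH-EP2 cells, against 0.0034 and 0.010 for all genes. Both lists were chosen with earlier results of these data known.

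Markers of the cell state were read beside these changes. Of the 7 epithelial-like markers, 2 fell and 0 rose in SH-SY5Y TRPM7 shRNA cells (limma, the same 2 and 0 at an unadjusted p under 0.05), and 1 rose and 2 fell in SH-EP2 TRPM7 shRNA cells. These are mesenchymal genes, and the study counts SNAI2 and TWIST1 among activators of the epithelial-to-mesenchymal transition. SNAI2, which encodes the transcription factor Slug, fell with TRPM7 shRNA by 2.77 on the log2 scale in SH-SY5Y (adjusted p = 1.24e-08) and by 1.39 in SH-EP2 cells (adjusted p = 6.68e-05). VIM, the intermediate filament vimentin, fell by 0.30 in SH-SY5Y cells (adjusted p = 0.0176). In SH-EP2 cells TWIST1, a transcription factor, fell by 0.37 (adjusted p = 0.0117), whereas CD44, the hyaluronan receptor, rose by a log2 of 0.77 (adjusted p = 0.0207). WWTR1, the transcriptional coactivator TAZ, had a log2 difference of 1.21 in SH-EP2 cells (adjusted p = 0.262) and was undetected in SH-SY5Y cells. The summed linear signal of the 7 epithelial-like markers was 16008 to 17418 in SH-SY5Y control and 14423 to 14469 in SH-SY5Y TRPM7 shRNA cells, and 18528 to 19323 in SH-EP2 control and 21406 to 21691 in SH-EP2 TRPM7 shRNA cells. For the 8 neuroblastic markers it was 20306 to 21455 in control and 13994 to 14862 in TRPM7 shRNA cells of the SH-SY5Y line, and 322 to 369 over all SH-EP2 arrays. Such a sum is carried mostly by the brightest markers. Taken singly, 2 of the 8 neuroblastic markers were lower and 0 higher in SH-SY5Y TRPM7 shRNA cells (limma, adjusted p under 0.05). In SH-EP2 TRPM7 shRNA cells 1 was lower and 0 higher. Of 3 endothelial markers, PECAM1 was detected on all SH-EP2 arrays and on no SH-SY5Y array, and CDH5 and VWF on none. The part of these markers in the integrin and laminin results was not tested.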

How the data were processed

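RNA of 4 groups, control or TRPM7 shRNA cells of the SH-SY5Y and the SH-EP2 line (2 arrays per group, grouped by the labels) was hybridized to Illumina HumanHT-12 v4 bead arrays. The authors extracted bead signals with GenomeStudio 2011.1 and deposited them as intensities on a linear scale, not normalized between arrays. A detection p-value per probe was deposited beside each intensity. Their own normalization was Robust-Multi-Array, with a test that is not named.

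Here the RMA background model was applied to the intensities, followed by quantile normalization of the 8 arrays and log2 transformation. The 4 groups were fitted in limma 3.58.1 (R 4.3.3; lmFit, eBayes with an intensity trend), with two-sided p-values adjusted by Benjamini-Hochberg over 47322 probes and no filter. Of several probes of a gene, that with the highest mean was used. Where neither array of a group detected it, a bound replaced the fold, from the brighter group's mean and, per array, the lowest detected signal or the probe's own if higher.

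Every member past the threshold with TRPM7 shRNA, or in the interaction, and the 10 largest differences between control lines (the lower bound counting where a group was undetected) were named by array value, and at most 4 called genes per pathway list and line. The members and lists were chosen with earlier results of these data known. A gene of the family and a marker enter the counts and summed signals and are not reported singly here. The procedure was tested on simulated data. Alternatives were other background corrections, median scaling, a detection filter, no intensity trend, means over probes, lines fitted alone, a replicate block and arrays left out. Sequences are from RefSeq (GRCh38.p14), whose table names all 42 members. The 8 arrays limit the precision. Same-numbered arrays did not deviate together (r = -0.111 in SH-SY5Y and -0.0045 in SH-EP2, 14577 probes), so replicate numbers were not used as pairs.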

Additional observations from a re-analysis of the deposited data

Results flagged for a closer look

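The change with TRPM7 shRNA differed between the cell lines for 4 members, by the interaction term in limma (SH-EP2 effect minus SH-SY5Y effect, 2 arrays per group). ITGA2, a collagen receptor subunit, had a log2 difference of 1.94 (1.49 for SH-EP2 cells against -0.45 for SH-SY5Y cells, adjusted p = 9.07e-04). ITGA11, also a collagen receptor subunit, had one of -1.81 (-1.91 and -0.10, adjusted p = 0.00599), which its second probe, undetected in SH-SY5Y cells, did not pass (-1.43, adjusted p = 0.156). LAMC1, a laminin gamma chain, had one of 0.88 (-0.14 and -1.02, adjusted p = 0.00232). LAMA5, a laminin alpha chain, had one of 0.59 (0.41 and -0.17, adjusted p = 0.0398). The LAMA5 call was lost with median scaling, with probes averaged, by blocking on the replicate number and without some single arrays. None of the 4 calls held without the intensity trend.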

How the results depend on the processing

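In 454 repeats of the named members' results under another setting, 402 kept their direction and stayed past the threshold, 52 kept their direction and did not pass, and 0 reversed. These repeats include the 10 largest differences between the control lines, which lost no call. All 52 losses were therefore among the TRPM7 shRNA and interaction results. The number of members past the threshold was 4 for TRPM7 shRNA in SH-SY5Y, 8 for TRPM7 shRNA in SH-EP2, 4 for the interaction and 25 between the control lines. Without an intensity trend in eBayes it was 0, 0, 0 and 24 (7, 13, 10 and 26 at an unadjusted p under 0.05), and the cause was not tested. Of all 47322 probes, 64, 100, 23 and 9692 passed after adjustment in that setting, against 999, 1429, 662 and 12400 with the trend. At the unadjusted threshold no count was taken over all probes. All-probe calls in SH-EP2 were 1997 with normexp, 985 with median scaling, 2015 without background correction and 2587 with SH-EP2 fitted alone. For the interaction they were 796 with neqc, 1153 with normexp and 1248 without background correction. In SH-EP2 cells the number of members was 13 with normexp, 5 with median scaling, 14 without background correction and 15 with the SH-EP2 arrays fitted alone. For the interaction it was 7 with neqc, 8 with normexp and 9 without background correction, each time for a cause that was not tested. With each array left out in turn, with the remaining array taken to vary as the other groups do, it was 3 to 5 in SH-SY5Y, 3 to 9 in SH-EP2, 3 to 6 for the interaction and 24 to 25 between the lines. In SH-EP2 leaving out control replicate 1 gave 3, control replicate 2 gave 4, and TRPM7 shRNA replicate 1 or 2 gave 3. With the replicate number as a block, the member counts were 4, 8, 3 and 24, with LAMA5 lost from the interaction and ITGA6 from the line comparison. The block changed no other call of a member. Over all probes 801, 1136, 500 and 10323 passed with it. With SH-SY5Y numbers crossed, a block added after seeing the data, the member counts were 5, 9, 6 and 24. Over all probes 1420, 1873, 1000 and 11424 passed then. For a member that is not above background on an array, only an upper bound is known there, and 8 of the 42 were undetected on every array.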
